A study of Homo sapiens with 26 samples.

Results

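The genes described here build, steer and receive the vesicles that move proteins between the endoplasmic reticulum (ER) and the Golgi apparatus. They were chosen by name, with earlier results of these data known. The 58 genes form 6 groups: the COPI coat, the COPII coat, the ARF GTPases with their regulators, the cargo receptors, the SNAREs, and the COG complex with the golgins. Of the 58, 51 had a value among the 17687 genes measured, each from 1 probe set. COPG2, ARF1, ARFGAP1, KDELR2, TMED7, COG8 and USO1 were not analysed here. RNA had been hybridised to 26 single-colour arrays of 3 human lung cancer cell lines, NCI-H1975 (H1975), A549 and NCI-H1299 (H1299). The labels give H1975 as lung adenocarcinoma and the other lines as lung carcinoma. H1975 had 5 Omomyc and 4 PBS arrays, A549 had 3 Omomyc and 4 PBS arrays, and H1299 had 5 of each. Omomyc is a miniprotein made from the dimerization domain of MYC, which binds MYC and MAX and occupies E-boxes. Plated cells received it at 12.8 µM, and PBS was the vehicle. All groups were grown in RPMI1640 with 10% serum, and how long they were exposed is not given here. PBS was the only control, so Omomyc and any other added protein cannot be told apart. The RNA came from whole cultures, so fewer responding cells and less change per cell cannot be told apart either.

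COPII, built from SAR1, SEC23-SEC24 and SEC13-SEC31, buds vesicles from the ER and packs cargo into them through SEC24. COPI, recruited by active ARF, carries proteins back from the Golgi to the ER and between Golgi cisternae, and KDEL receptors ride in it to return escaped ER chaperones. Tethers such as COG and GM130 catch arriving vesicles, and SNAREs fuse them with the target membrane.

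The values are the deposited log2 values, and a change is Omomyc minus PBS with the standard error (SE) of a limma fit after ±. A gene was called where its Benjamini-Hochberg adjusted p over all 17687 genes was under 0.05. The distributions of values divided the arrays into 3 sets of 9, 10 and 7 arrays, with array means of 7.08 to 7.12, 7.30 to 7.36 and 6.94 to 6.99, and the labels do not say what separates them. Each set held every line with both treatments, except that set 3 held no Omomyc array of A549, and the set was a term of the fit. AKR1B10, known to be high in A549 cells, averaged 17.10 ± 0.22 in A549 PBS arrays (SD, n = 4), against 3.75 ± 0.27 in H1975 PBS arrays (n = 4) and 3.00 ± 0.41 in H1299 PBS arrays (n = 5). Of 10 markers of other cell types, 8 were measured, with group means between 2.60 and 14.35. The leukocyte and endothelial markers PTPRC, CD3E, PECAM1 and CDH5 were below the brightest background probe set (6.69) in every group. Of the other 4, CD68, a lysosomal protein used as a macrophage marker, averaged 14.35 in Omomyc and 12.86 in PBS arrays of H1975, 9.24 and 9.09 in A549, and 13.96 and 13.34 in H1299. ACTA2, the smooth muscle actin, averaged 8.28 in Omomyc and 6.70 in PBS arrays of H1975, 8.37 and 7.99 in A549, and 7.89 and 7.37 in H1299. The fibroblast collagen COL1A1 averaged 8.30 in Omomyc and 9.44 in PBS arrays of H1975, 5.57 and 5.90 in A549, and 5.67 and 5.58 in H1299. PDGFRB, a receptor of pericytes, averaged 6.46 in Omomyc and 6.87 in PBS arrays of H1975, 3.20 and 2.87 in A549, and 3.85 and 3.56 in H1299. CD68 was called higher in H1975 and H1299 (adjusted p 1.90e-06 and 0.0207) and ACTA2 in H1975 (1.66e-06), neither COL1A1 nor PDGFRB was called in any line, and the part of these genes in the results was not tested. The lowest group mean of any measured ER-Golgi gene was 7.41.

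Transport genes of all 6 groups were higher with Omomyc in each line. In H1975, 28 of the 51 measured genes were called higher, where 9.37% of all genes were, and 1 was called lower, where 9.85% of all genes were. In A549, 25 were called higher and 0 lower, where 1.71% and 1.13% of all genes were. At an unadjusted p under 0.05, 0 of the 51 were lower in A549. In H1299, 29 were called higher and 1 lower, where 7.73% and 8.17% of all genes were. The median change of the 51 was 0.55 in H1975, 0.70 in A549 and 0.63 in H1299, beside medians over all genes of 0.022, -0.0067 and 0.0018.

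Of the 51 genes, 15 were called higher in all 3 lines, where 0.362% of all genes were. They were COPA, COPG1, SEC13, SEC31A, SEC24A, SEC24D, GBF1, ARFGAP3, ARL1, LMAN1, KDELR3, BET1, BET1L, COG6 and GOLGA2. These 15 are 29.4% of the measured transport genes and 23.4% of the 64 genes of the whole table called higher in all 3 lines. A further 13 were called higher in 2 lines and 11 in 1 line, while 12 were called higher in none. With no cut on p, every Omomyc array lay above every PBS array of the same line for 16 of the 51 genes in H1975, 34 in A549 and 22 in H1299, where this held for 5.18%, 5.79% and 3.91% of all genes. It held in all 3 lines for 11 of the 51, where it held for 0.249% of all genes.

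The number of calls depended on how the spread was modelled, most in A549 and H1975. Without a term for the array set, 15, 16 and 25 were called higher in H1975, A549 and H1299, where 5.57%, 0.916% and 4.35% of all genes were, and 7 in all 3 lines, where 0.158% were. With the replicate number as a block beside the array set, 7 were called higher in H1975, where 625 of all 17687 genes were. Of the 7 COPI genes, 0 were called there. Under the same block 16 were called higher in A549 and 29 in H1299, where 1.03% and 7.22% of all genes were. In both of these lines 12 were called higher under the block, where 0.396% of all genes were, and 18 without it, where 0.678% were. Under the block 6 were called in all 3 lines, where 0.119% of all genes were. With the set removed, arrays of the same number correlated at most at 0.082 in H1975, 0.0083 in A549 and 0.046 in H1299. Beside the set, the block was therefore no better grounded in A549 and H1299 than in H1975. Leaving out A549 Omomyc replicate 1 also left 16 higher calls in A549, where 314 of all genes were called higher or lower. COPA, COPG1, SEC31A, SEC24D, ARL1, LMAN1, BET1L and GOLGA2 stayed called higher in all 3 lines whichever of the 26 arrays was left out. Fitted on the arrays of a single line, 16 genes were called higher in H1975, 4 in A549 and 29 in H1299, where 7.16%, 0.43% and 8.02% of all genes were. The 7 arrays of A549 alone left COPG1, SEC24D, ARL1 and KDELR3 called, and the adjusted p of the 21 lost there was 0.051 to 0.249. Only COPG1, SEC24D and ARL1 were called higher in each of the 3 lines fitted alone, as KDELR3 did not pass in H1975 (0.0575). In H1975 alone 12 calls were lost (0.0514 to 0.094), and in H1299 alone none.

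**Figure D1:**
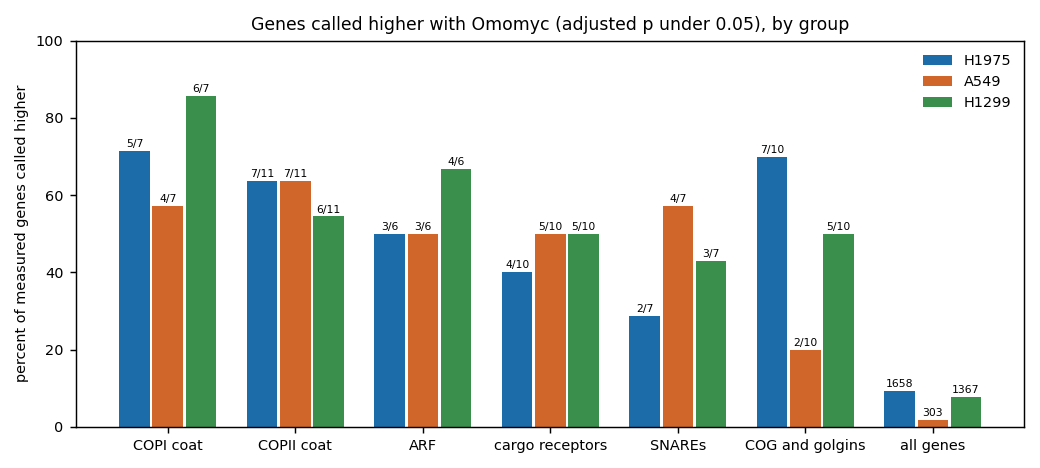
Percent of the measured genes of each group, and of all 17687 genes, called higher with Omomyc in H1975, A549 and H1299, with the counts above the bars. Every transport group had a larger share of calls than all genes had in the same line.

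**Figure D2:**
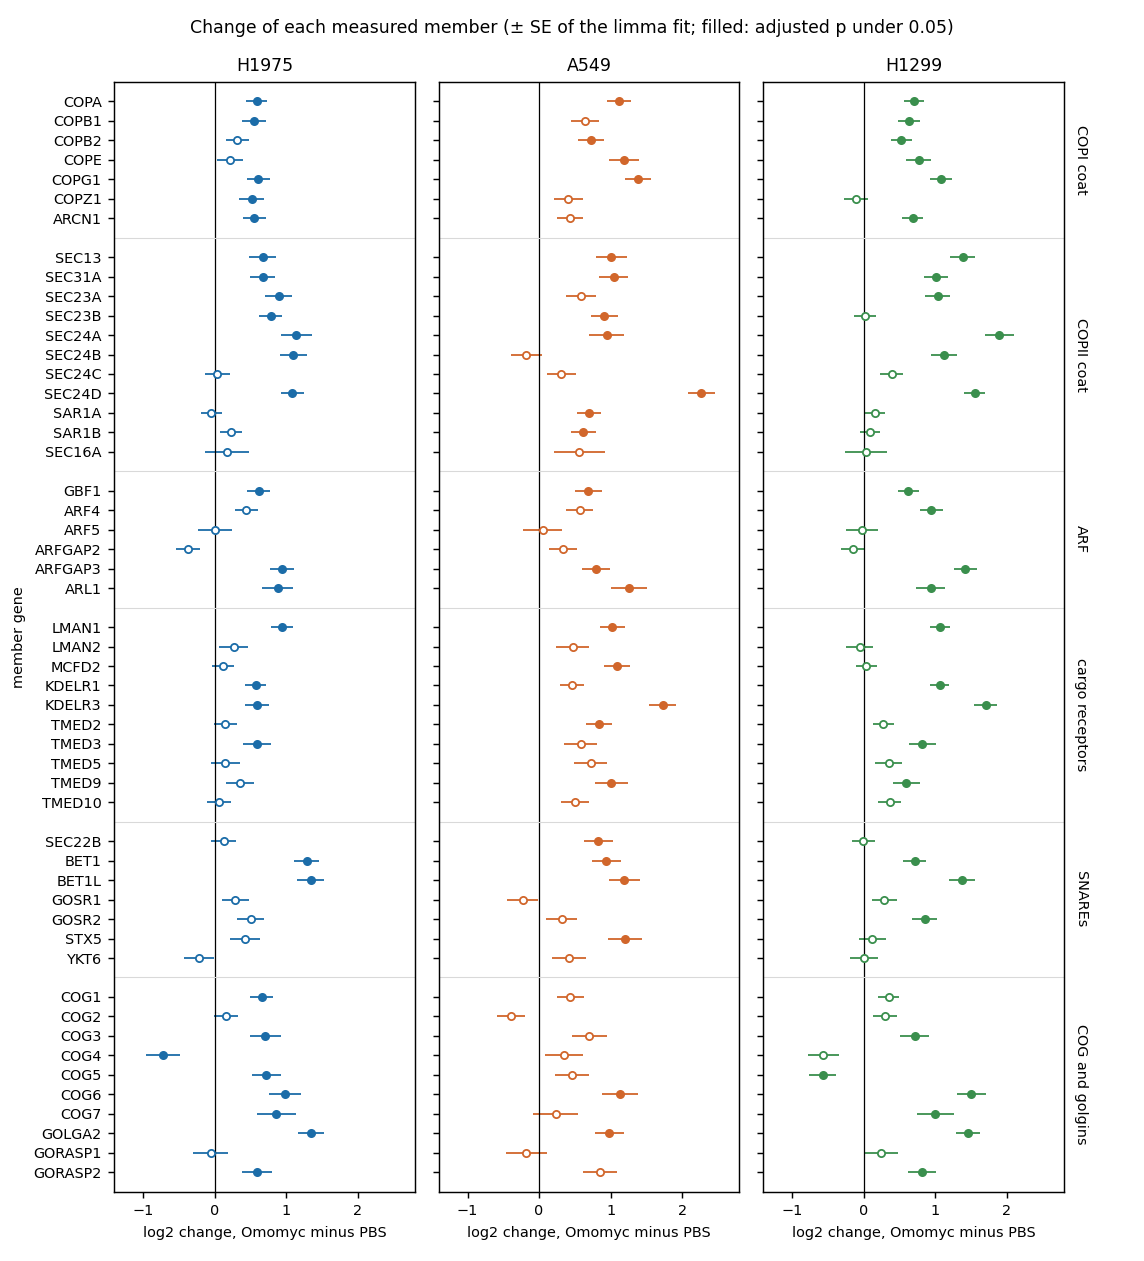
Log2 change, Omomyc minus PBS, of the 51 measured genes in the 3 lines, with bars of 1 SE and filled points for an adjusted p under 0.05. Most points lie right of 0, and the COG group holds the only 2 filled points left of it, COG4 in H1975 and COG5 in H1299.

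The start regions of the genes called higher in all 3 lines were read for motifs of the ER stress response, in which XBP1 and ATF6 bind DNA, and for the E-box that MYC and MAX bind. The RefSeq promoter table (GRCh38.p14, 250 bases before to 50 after each start) held 13 of the 15 genes, and 46 of the 51 measured ones. Both strands were searched. For 9 genes that table held several start regions, and the first was read. TGACGTGG, the unfolded protein response element, occurred in 4 of the 13 (30.8%), in 1 of the 12 genes called higher in no line (8.33%) and in 9 of the 46 (19.6%), against 0.795% of the 27305 promoters of the table. Among the promoters of all measured genes it occurred in 0.863%. Its core ACGTG, which also lies inside the E-box, occurred in 9 of the 13 (69.2%), 4 of the 12 (33.3%), 27 of the 46 (58.7%) and 21.6% of all promoters. The E-box CACGTG occurred in 1 of the 13 (7.69%), 2 of the 12 (16.7%), 4 of the 46 (8.7%) and 7.43% of all promoters. The ER stress element, CCAAT and CCACG spaced by 9 bases, was in none of the 46 windows and in 0.0806% of all promoters. The windows of KDELR3, SEC24A and COPA are printed because these 3 had the smallest p for the change averaged over the lines among the genes that hold TGACGTGG. Capitals mark that motif, which lies on the opposite strand in KDELR3. The printed window of SEC24A begins after the first base of its gene entry (134648382). KDELR3 lies at chr22:38467846-38468145 on the plus strand, SEC24A at chr5:134648535-134648834 on the plus strand and COPA at chr1:160343201-160343500 on the minus strand, and each is written 5′ to 3′ along its own gene.
KDELR3: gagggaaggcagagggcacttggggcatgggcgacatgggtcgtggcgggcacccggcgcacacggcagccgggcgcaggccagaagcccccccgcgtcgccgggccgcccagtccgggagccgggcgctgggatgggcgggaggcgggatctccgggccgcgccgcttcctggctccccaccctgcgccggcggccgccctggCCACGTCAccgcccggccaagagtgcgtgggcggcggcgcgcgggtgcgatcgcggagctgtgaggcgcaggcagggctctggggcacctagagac
SEC24A: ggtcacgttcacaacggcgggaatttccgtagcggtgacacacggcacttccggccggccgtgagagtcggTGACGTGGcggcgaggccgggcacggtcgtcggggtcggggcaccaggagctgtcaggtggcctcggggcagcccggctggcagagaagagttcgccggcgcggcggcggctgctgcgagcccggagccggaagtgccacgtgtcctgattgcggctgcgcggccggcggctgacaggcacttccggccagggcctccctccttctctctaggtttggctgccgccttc
COPA: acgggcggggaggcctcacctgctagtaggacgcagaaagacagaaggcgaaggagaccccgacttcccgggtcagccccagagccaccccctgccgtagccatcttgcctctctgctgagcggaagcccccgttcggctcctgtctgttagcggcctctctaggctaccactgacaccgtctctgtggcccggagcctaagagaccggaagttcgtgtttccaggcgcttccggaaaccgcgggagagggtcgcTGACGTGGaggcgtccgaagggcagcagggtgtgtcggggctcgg
A match of letters is a description of these windows and shows no binding.

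COPI coat genes were called higher with Omomyc in 5 of 7 cases in H1975, 4 of 7 in A549 and 6 of 7 in H1299, with median changes of 0.55, 0.73 and 0.68. COPG1, the gamma subunit of the coat, had 13.71, 13.34, 13.68, 13.83 and 13.57 in H1975 Omomyc arrays, against 13.12, 13.09, 13.20 and 12.72 in H1975 PBS arrays. In A549 it had 13.71, 13.46 and 14.03 with Omomyc, against 12.25, 12.37, 12.42 and 12.00 with PBS. H1299 gave 13.30, 13.81, 13.66, 13.32 and 13.28 with Omomyc, against 12.44, 12.92, 12.71, 12.15 and 11.73 with PBS. All Omomyc arrays of a line were above all its PBS arrays, and the gap was widest in A549. The change of COPG1 was 0.61 ± 0.16 in H1975 (adjusted p 0.00573), 1.38 ± 0.18 in A549 (1.94e-05) and 1.08 ± 0.15 in H1299 (5.98e-06), or 1.53, 2.61 and 2.12-fold.

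COPA, the alpha subunit, which binds the retrieval signals of cargo tails and whose start region is printed above, was at 14.55, 14.63, 14.74, 14.46 and 14.31 in H1975 Omomyc arrays, against 14.00, 14.18, 13.87 and 13.83 in H1975 PBS arrays. A549 had 13.81, 13.84 and 14.19 with Omomyc, against 12.87, 12.50, 13.08 and 12.81 with PBS. For H1299 the values were 13.48, 13.75, 13.63, 13.67 and 13.42 with Omomyc, against 12.78, 12.91, 12.95, 12.94 and 12.86 with PBS. The groups did not overlap in any line, and its changes were 0.59 ± 0.15, 1.12 ± 0.17 and 0.70 ± 0.14 in H1975, A549 and H1299. Its calls in A549 and H1975 were lost when each line was fitted alone (adjusted p 0.0566 and 0.0544). Within the array sets alone the difference of COPA lay between 0.48 and 1.14 over all lines.

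The beta subunit COPB1 and the delta subunit ARCN1 were called higher in H1975 and H1299 (COPB1 0.55 and 0.63, ARCN1 0.55 and 0.68), and had changes of 0.64 and 0.43 in A549 with adjusted p of 0.072 and 0.273. The beta-prime subunit COPB2 and the epsilon subunit COPE were called higher in A549 (0.73 and 1.19) and H1299 (0.53 and 0.77), and had 0.32 and 0.22 in H1975. COPZ1, the zeta subunit, was called higher in H1975 (0.52 ± 0.18) and had -0.11 ± 0.17 in H1299. Without the array set the H1975 calls of COPB1, COPG1 and COPZ1 and the A549 call of COPB2 were lost (adjusted p 0.0613, 0.067, 0.0747 and 0.0519). The A549 call of COPB2 was also lost with the replicate block (0.0697). It was lost when any 1 of 4 arrays was left out (highest 0.123, without A549 Omomyc replicate 1). In H1975 the call of COPB1 was lost for any 1 of 3 arrays (highest 0.0619, without H1975 PBS replicate 4). That of COPZ1 was lost for any 1 of 6 (highest 0.111, without H1975 Omomyc replicate 4). That of ARCN1 was lost only without H1975 PBS replicate 1 (0.068).

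Among COPII coat genes, 7 of 11 were called higher in H1975, 7 in A549 and 6 in H1299, with median changes of 0.68, 0.70 and 1.01. The 2 subunits of the outer cage, SEC13 and SEC31A, were higher in every line. Calls in the inner coat varied between paralogs, which were not tested against each other. SEC24D, a cargo adaptor of the inner coat, had the largest change of the 51 genes in A549. It read 12.22, 12.27, 12.70, 13.06 and 11.99 in H1975 Omomyc arrays, against 10.81, 11.81, 12.23 and 10.78 in H1975 PBS arrays. A549 had 11.96, 11.67 and 12.31 with Omomyc, against 9.51, 9.47, 10.29 and 9.002 with PBS. In H1299 it was at 10.27, 10.82, 10.54, 9.75 and 9.79 with Omomyc, against 8.69, 9.19, 9.19, 8.38 and 7.97 with PBS. The groups were apart in A549 and H1299 and overlapped in H1975, where the highest PBS array and the lowest Omomyc array came from different array sets. SEC24D rose by 1.09 ± 0.16 in H1975 (adjusted p 1.27e-05), 2.27 ± 0.19 in A549 (8.65e-09) and 1.55 ± 0.15 in H1299 (2.88e-08), or 2.13, 4.81 and 2.93-fold.

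SEC24A, of the other SEC24 subfamily, had 11.95, 12.29, 11.96, 11.83 and 11.56 in H1975 Omomyc arrays, against 10.96, 10.48, 11.39 and 10.09 in H1975 PBS arrays. A549 read 11.31, 10.84 and 10.57 with Omomyc, against 9.71, 9.85, 10.31 and 9.44 with PBS. Its values in H1299 were 11.37, 11.21, 11.27, 10.98 and 10.65 with Omomyc, against 9.64, 8.75, 9.58, 9.33 and 8.69 with PBS. No line had overlapping groups, and the widest gap was in H1299. The changes were 1.14 ± 0.21, 0.95 ± 0.25 and 1.90 ± 0.20 in H1975, A549 and H1299 (adjusted p 0.000233, 0.029 and 1.00e-07). The A549 call of SEC24A did not hold with the replicate block (adjusted p 0.0851), without the array set (0.0745), or without A549 PBS replicate 1, 2 or 4 (0.102, 0.0902 and 0.0546) or Omomyc replicate 1 or 2 (0.179 and 0.0601).

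SEC24B, the closest paralog of SEC24A, had 10.92, 10.99, 10.51, 10.96 and 10.43 in H1975 Omomyc arrays, against 9.51, 9.58, 10.15 and 9.40 in H1975 PBS arrays. A549 showed 9.26, 9.12 and 9.81 with Omomyc, against 9.43, 9.45, 9.62 and 9.54 with PBS. H1299 had 12.33, 12.42, 11.92, 11.54 and 11.72 with Omomyc, against 10.90, 10.62, 11.10, 10.81 and 10.88 with PBS. The groups were apart in H1975 and H1299, with changes of 1.10 ± 0.19 and 1.13 ± 0.18, and overlapped in A549, where the change was -0.18 ± 0.22 (95% interval -0.62 to 0.27). SEC24C, the closest paralog of SEC24D, was called in no line, with changes of 0.04, 0.31 and 0.40 in H1975, A549 and H1299.

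SEC13 rose by 0.68 ± 0.19, 1.01 ± 0.22 and 1.39 ± 0.18, and SEC31A by 0.67 ± 0.18, 1.04 ± 0.21 and 1.01 ± 0.17, in H1975, A549 and H1299. SEC23A and SEC23B, alternative partners of SEC24 that trigger GTP hydrolysis by SAR1, were both called higher in H1975 (0.89 and 0.78). Beyond that, SEC23A was called in H1299 (1.03) and SEC23B in A549 (0.91), and SEC23B had 0.03 ± 0.15 in H1299. SEC23A was not called in A549 (adjusted p 0.158), where its change was 0.62 with A549 fitted alone. The change of SEC23A did not differ between lines by the F test (adjusted p 0.516). The GTPases SAR1A and SAR1B, which start coat assembly, were called higher only in A549 of the 3 lines (0.70 ± 0.17 and 0.62 ± 0.17), and neither differed between lines by the F test (adjusted p 0.0562 and 0.217). SEC16A, the scaffold of ER exit sites, was called in no line, with SEs of 0.29 to 0.36. Without the array set the calls of SEC13 and SEC31A in H1975 (0.104 and 0.152) and A549 (0.0582 and 0.0687), of SEC23A in H1975 (0.11) and of SAR1B in A549 (0.315) were lost. The SAR1A and SAR1B calls were also lost with the replicate block (0.119 and 0.132). The SAR1A call was lost when any 1 of 3 arrays was left out, and the SAR1B call for any 1 of 19. Both had their highest adjusted p without A549 Omomyc replicate 2 (0.126 and 0.147). The H1975 call of SEC13 was lost only without H1975 PBS replicate 3 (0.0707).

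**Figure D3:**
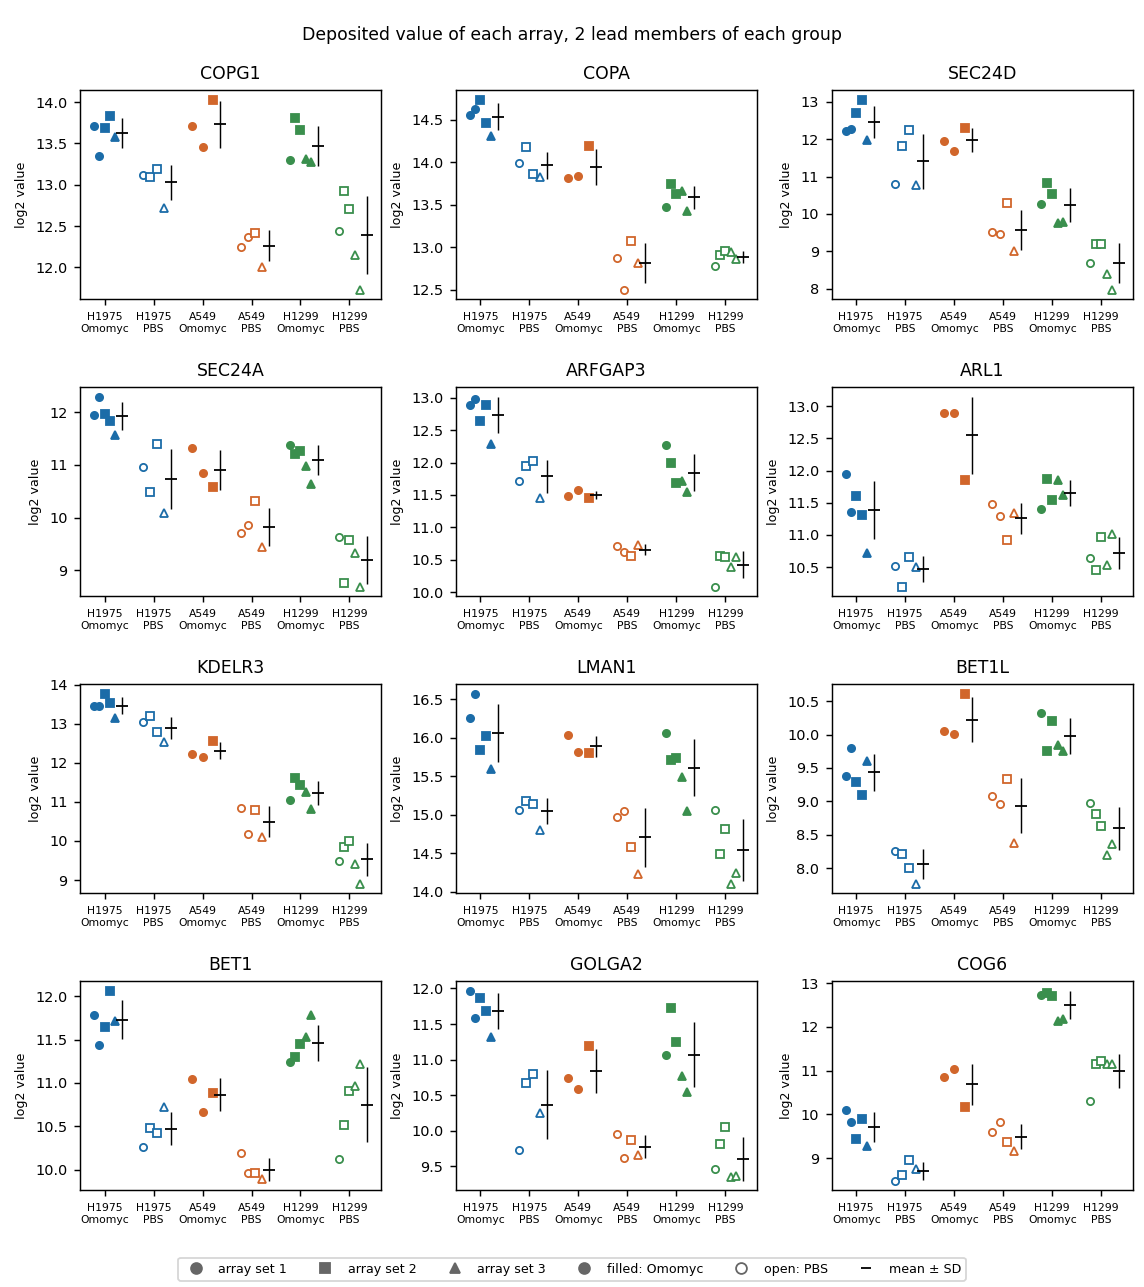
Deposited log2 value of every array for 2 genes of each group, with Omomyc arrays filled and PBS arrays open, symbols for the 3 array sets, and the mean ± SD beside each group. Omomyc and PBS arrays are apart in every panel and line except SEC24D and KDELR3 in H1975 and LMAN1 in H1299.

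Of the 6 ARF genes measured, 3 were called higher in H1975, 3 in A549 and 4 in H1299, with median changes of 0.53, 0.63 and 0.78. The exchange factor GBF1, which switches ARF on at the cis-Golgi, ARFGAP3, which switches it off on COPI vesicles, and ARL1, which recruits golgins at the trans-Golgi, were the genes called in all 3 lines. ARFGAP3 had 12.89, 12.98, 12.65, 12.88 and 12.29 in H1975 Omomyc arrays, against 11.72, 11.95, 12.02 and 11.46 in H1975 PBS arrays. A549 had 11.48, 11.57 and 11.46 with Omomyc, against 10.72, 10.61, 10.55 and 10.73 with PBS. In H1299 the arrays read 12.27, 12.00, 11.69, 11.72 and 11.55 with Omomyc, against 10.08, 10.56, 10.54, 10.38 and 10.55 with PBS. The groups were apart in every line, by changes of 0.94 ± 0.17, 0.80 ± 0.19 and 1.42 ± 0.16 (adjusted p 0.000158, 0.0193 and 2.70e-07). In A549 the call of ARFGAP3 was lost with the replicate block (0.0874) and without PBS replicate 2 or 3 (0.0614 and 0.0685) or Omomyc replicate 1, 2 or 3 (0.0623, 0.0748 and 0.0605).

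ARL1 read 11.95, 11.35, 11.60, 11.31 and 10.72 in H1975 Omomyc arrays, against 10.52, 10.19, 10.66 and 10.49 in H1975 PBS arrays. Its values in A549 were 12.90, 12.89 and 11.86 with Omomyc, against 11.48, 11.29, 10.92 and 11.33 with PBS. H1299 had 11.40, 11.86, 11.54, 11.86 and 11.61 with Omomyc, against 10.63, 10.46, 10.97, 10.54 and 11.01 with PBS. The Omomyc arrays were higher throughout, with changes of 0.88 ± 0.22, 1.26 ± 0.25 and 0.94 ± 0.21 in H1975, A549 and H1299. GBF1 had nearly equal changes of 0.62 ± 0.16, 0.69 ± 0.18 and 0.63 ± 0.15. The A549 call of GBF1 was lost without the array set (adjusted p 0.131) and with the replicate block (0.0763). It was also lost when any 1 of 6 arrays was left out (highest 0.171, without A549 Omomyc replicate 3). ARF4, a GTPase that acts with ARF1 at the ER-Golgi interface, was called in H1299 (0.95 ± 0.15) and had 0.44 ± 0.16 in H1975 and 0.57 ± 0.19 in A549 (adjusted p 0.0582 and 0.114), although its Omomyc and PBS arrays overlapped in no line. ARF5 had 0.00, 0.05 and -0.03, and ARFGAP2, the relative of ARFGAP3, had -0.37, 0.34 and -0.15.

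For the cargo receptors, 4 of 10 were called higher in H1975, 5 in A549 and 5 in H1299, with medians of 0.31, 0.78 and 0.48. KDELR3, a KDEL receptor that returns chaperones to the ER and whose start region is printed above, was the gene of the 51 with the smallest p for a difference in response between lines. Its values were 13.45, 13.47, 13.78, 13.52 and 13.15 in H1975 Omomyc arrays, against 13.05, 13.19, 12.79 and 12.54 in H1975 PBS arrays. A549 had 12.22, 12.16 and 12.56 with Omomyc, against 10.86, 10.19, 10.80 and 10.10 with PBS. In H1299 there were 11.06, 11.61, 11.43, 11.26 and 10.82 with Omomyc, against 9.48, 9.85, 10.00, 9.41 and 8.90 with PBS. H1975 had the highest PBS values of the 3 lines and the only overlap of its groups. The changes were 0.59 ± 0.17 in H1975 (adjusted p 0.0131), 1.73 ± 0.19 in A549 (1.63e-06) and 1.71 ± 0.16 in H1299 (1.19e-08), or 3.31-fold in A549 and 3.26-fold in H1299. The H1975 call was lost without the array set (0.114), without H1975 PBS replicate 3 (0.0636) and with H1975 fitted alone (0.0575).

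LMAN1, the lectin that exports glycoproteins such as coagulation factors V and VIII from the ER, had 16.25, 16.57, 15.84, 16.03 and 15.59 in H1975 Omomyc arrays, against 15.06, 15.17, 15.14 and 14.80 in H1975 PBS arrays. A549 was at 16.04, 15.82 and 15.80 with Omomyc, against 14.97, 15.05, 14.58 and 14.23 with PBS. H1299 read 16.06, 15.72, 15.73, 15.49 and 15.05 with Omomyc, against 15.06, 14.48, 14.82, 14.10 and 14.24 with PBS. Only in H1299 did an Omomyc array fall below a PBS array. The change was close to 1 log2 unit in each line, at 0.95 ± 0.15, 1.02 ± 0.18 and 1.07 ± 0.14. Its A549 call was lost when A549 was fitted alone (adjusted p 0.0744). MCFD2, the partner of LMAN1 in that export, was called higher in A549 (1.09 ± 0.18) and had 0.12 ± 0.16 in H1975 and 0.04 ± 0.15 in H1299.

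KDELR1 was called higher in H1975 (0.57 ± 0.15) and H1299 (1.06 ± 0.14), with 0.46 ± 0.17 in A549 (adjusted p 0.173). Of the p24 family, which sorts cargo in both directions, TMED3 was called in H1975 and H1299 (0.59 and 0.82), TMED9 in A549 and H1299 (1.01 and 0.59) and TMED2 in A549 (0.83). TMED5 and TMED10 were called in no line, with changes of 0.06 to 0.72. The lectin LMAN2 had 0.27, 0.47 and -0.05 in H1975, A549 and H1299. Both calls of TMED3 (adjusted p 0.424 in H1975 and 0.125 in H1299) and the H1299 call of TMED9 (0.1) were lost without the array set. Leaving out single arrays also ended 4 calls. TMED3 in H1975 was lost when any 1 of 6 arrays was left out (highest 0.186, without H1975 PBS replicate 3). TMED9 in H1299 was lost for any 1 of 4 arrays (highest 0.121, without H1299 PBS replicate 1). In A549, TMED9 was lost only without A549 Omomyc replicate 1 (0.0643) and TMED2 only without A549 Omomyc replicate 2 (0.0697).

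SNARE genes were called higher in 2 of 7 cases in H1975, 4 in A549 and 3 in H1299, with medians of 0.43, 0.83 and 0.29. BET1, of the ER-to-Golgi fusion complex, and BET1L, its counterpart within the Golgi, rose in every line. BET1L had 9.37, 9.81, 9.29, 9.09 and 9.60 in H1975 Omomyc arrays, against 8.25, 8.22, 8.01 and 7.77 in H1975 PBS arrays. A549 had 10.05, 10.01 and 10.61 with Omomyc, against 9.08, 8.97, 9.34 and 8.37 with PBS. H1299 showed 10.32, 9.75, 10.20, 9.84 and 9.75 with Omomyc, against 8.98, 8.81, 8.64, 8.20 and 8.36 with PBS. Its groups were apart in each line, by 1.34 ± 0.19, 1.19 ± 0.22 and 1.38 ± 0.18, and the A549 call of BET1L was lost with A549 fitted alone (adjusted p 0.0566).

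BET1 read 11.78, 11.44, 11.64, 12.06 and 11.71 in H1975 Omomyc arrays, against 10.27, 10.49, 10.42 and 10.72 in H1975 PBS arrays. The A549 arrays were at 11.04, 10.67 and 10.89 with Omomyc, against 10.19, 9.97, 9.96 and 9.89 with PBS. H1299 had 11.24, 11.30, 11.45, 11.53 and 11.78 with Omomyc, against 10.12, 10.52, 10.91, 10.96 and 11.22 with PBS. The groups were apart in each line, barely so in H1299, with changes of 1.29 ± 0.18, 0.94 ± 0.20 and 0.71 ± 0.17 in H1975, A549 and H1299. STX5, the syntaxin of both complexes, and SEC22B, which enters the ER-to-Golgi complex, were called in A549 (1.20 ± 0.24 and 0.83 ± 0.20) and had changes between -0.0038 and 0.43 in the other lines. GOSR2 was called in H1299 (0.85 ± 0.18) and had 0.51 ± 0.19 in H1975 (adjusted p 0.0585). GOSR1 and YKT6, partners of BET1L within the Golgi, were called in no line, with changes of -0.23 to 0.41. The A549 calls of BET1 and SEC22B were lost without the array set (0.058 and 0.0603) and with the replicate block (0.055 and 0.0605). The BET1 call was also lost without A549 Omomyc replicate 1 (0.0636). The SEC22B call was lost when any 1 of 3 arrays was left out (highest 0.0912, without A549 Omomyc replicate 1).

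The COG and golgin group held both rises and the only falls that were called. In H1975 7 of its 10 measured genes were called higher and 1 lower, in A549 2 and 0, and in H1299 5 and 1, with medians of 0.68, 0.45 and 0.53. GOLGA2, which encodes the cis-Golgi tether GM130, had 11.97, 11.59, 11.86, 11.69 and 11.31 in H1975 Omomyc arrays, against 9.73, 10.68, 10.80 and 10.25 in H1975 PBS arrays. A549 read 10.74, 10.59 and 11.19 with Omomyc, against 9.96, 9.62, 9.87 and 9.67 with PBS. H1299 was at 11.07, 11.73, 11.24, 10.76 and 10.54 with Omomyc, against 9.46, 9.81, 10.05, 9.35 and 9.36 with PBS. The groups were apart in all lines, and GOLGA2 rose by 1.35 ± 0.18, 0.98 ± 0.21 and 1.46 ± 0.17. Its A549 call was lost without the array set (adjusted p 0.0518) and with A549 fitted alone (0.0877).

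COG6, a subunit of the B lobe of the COG tether, which keeps glycosylation enzymes in place by catching retrograde vesicles, had 10.10, 9.83, 9.44, 9.89 and 9.28 in H1975 Omomyc arrays, against 8.48, 8.62, 8.96 and 8.76 in H1975 PBS arrays. In A549 it read 10.86, 11.04 and 10.16 with Omomyc, against 9.61, 9.83, 9.37 and 9.17 with PBS. The values in H1299 were 12.72, 12.78, 12.70, 12.14 and 12.17 with Omomyc, against 10.31, 11.16, 11.21, 11.15 and 11.15 with PBS. Groups were apart in each line, with changes of 0.98 ± 0.22, 1.13 ± 0.25 and 1.51 ± 0.21. Its A549 call was lost with the replicate block (adjusted p 0.0743) and without A549 Omomyc replicate 1 or 2 (0.0569 and 0.0736).

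COG5, also of the B lobe, moved in opposite directions in 2 lines. It had 13.28, 13.27, 13.32, 13.51 and 12.79 in H1975 Omomyc arrays, against 11.76, 12.59, 13.23 and 12.65 in H1975 PBS arrays. A549 had 12.44, 12.59 and 12.49 with Omomyc, against 11.65, 11.95, 12.43 and 12.21 with PBS. H1299 had 12.79, 13.20, 12.80, 12.91 and 12.50 with Omomyc, against 13.14, 13.40, 13.39, 13.46 and 13.67 with PBS. COG5 was higher by 0.72 ± 0.20 in H1975 (adjusted p 0.0108) and lower in H1299, at -0.57 ± 0.19 (0.038), and its groups overlapped in both. Both calls were lost without the array set (0.0535 and 0.109). The H1975 call was lost without H1975 PBS replicate 1 (0.116), and the H1299 call with the replicate block (0.087), after quantile normalization (0.0883) and without H1299 PBS replicate 1, 4 or 5 (0.0568, 0.0798 and 0.12) or Omomyc replicate 3, 4 or 5 (0.0972, 0.0501 and 0.117).

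COG4, of the A lobe, was the member called lower in H1975. It had 8.39, 8.57, 9.16, 8.45 and 7.67 in H1975 Omomyc arrays, against 9.22, 9.12, 9.19 and 9.29 in H1975 PBS arrays. A549 read 8.16, 8.32 and 8.87 with Omomyc, against 8.12, 7.40, 8.85 and 7.65 with PBS. H1299 had 8.13, 8.39, 9.29, 8.22 and 8.48 with Omomyc, against 9.16, 9.68, 9.34, 8.63 and 8.53 with PBS. The groups overlapped in every line, through Omomyc replicate 3 in H1975, and the changes were -0.72 ± 0.23 (adjusted p 0.0269), 0.35 ± 0.27 and -0.56 ± 0.22 (0.0797 in H1299). The H1975 call was lost without the array set (0.112) and without H1975 PBS replicate 1 or 4 (0.099 and 0.155) or Omomyc replicate 4 or 5 (0.081 and 0.1), and without H1299 Omomyc replicate 3 COG4 was called lower in H1299 (0.0463).

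The other COG genes rose or had no call. COG1 was called higher in H1975 (0.66 ± 0.16), and COG3 and COG7 in H1975 (0.71 and 0.87) and H1299 (0.72 and 1.00). COG2 had 0.16, -0.39 and 0.30 in H1975, A549 and H1299 and was called in none. GORASP2, the stacking protein GRASP55, was called in H1975 (0.60 ± 0.21) and H1299 (0.81 ± 0.20), with 0.85 ± 0.24 in A549 (adjusted p 0.0538). GORASP1, the stacking protein GRASP65 that binds GM130, had -0.05, -0.18 and 0.24. Without the array set the calls of COG1, COG3, COG7 and GORASP2 in H1975 (0.281, 0.0948, 0.0539 and 0.323) and of COG3 and GORASP2 in H1299 (0.0816 and 0.0691) were lost. In H1975, leaving out any 1 of 15 arrays ended the call of GORASP2 (highest 0.197, without H1975 PBS replicate 4). There any 1 of 3 arrays ended that of COG3 (highest 0.113, without H1975 PBS replicate 1). Any 1 of 4 ended that of COG7 (highest 0.0733, without H1975 PBS replicate 2). The H1299 call of COG3 was lost only without H1299 PBS replicate 1 (0.0529).

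Whether the lines responded differently was tested by a moderated F test of the interaction of line and treatment. It called 9 of the 51 genes, or 17.6%, where 17.4% of all genes were called, so the share among the transport genes was near that of all genes. The 9 were KDELR3, SEC24B, COG5, MCFD2, SEC24D, SEC23B, STX5, COPE and SEC22B. The change of KDELR3 in H1975 was smaller than in A549 by 1.14 (difference -1.14 ± 0.26, adjusted p 0.00377) and smaller than in H1299 (difference -1.12 ± 0.23, 0.00145), while A549 minus H1299 gave 0.02 ± 0.25. SEC24B changed more in H1975 than in A549 (1.28 ± 0.29, 0.00352) and less in A549 than in H1299 (-1.30 ± 0.28, 0.004). SEC24D changed less in H1975 than in A549 (-1.18 ± 0.25, 0.00191). MCFD2 changed more in A549 than in H1299 (1.05 ± 0.23, 0.00534), and H1975 minus A549 was -0.97 ± 0.24 (0.00768). COG5 differed between H1975 and H1299 by 1.29 ± 0.28 (0.002). SEC23B changed less in H1299 than in H1975, with H1975 minus H1299 at 0.76 ± 0.22 (0.0249). STX5 and SEC22B changed more in A549 than in H1299 (1.07 ± 0.31 and 0.83 ± 0.25, adjusted p 0.0315 and 0.0453), and COPE changed less in H1975 than in A549 (-0.97 ± 0.28, 0.0232). By pairs of lines, 8 of the 51 differed between H1975 and A549, 3 between H1975 and H1299 and 6 between A549 and H1299, where 10.3%, 11.7% and 6.41% of all genes did. Without the array set the F test called 5 of the 51, where 8.18% of all genes were called, and with the replicate block 2, MCFD2 and COG5, where 8.58% were. Without the set SEC24D, COPE, STX5 and SEC22B lost the F test call (adjusted p 0.193, 0.161, 0.101 and 0.132) and the differences between pairs of lines named above (0.123, 0.102, 0.0949 and 0.143). SEC23B kept the F test call there, while its difference between H1975 and H1299 did not pass (0.0555). LMAN1, GBF1, BET1L and COG3 had F test adjusted p of 0.928, 0.975, 0.898 and 1.00, which does not show that the lines respond alike.

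**Figure D4:**
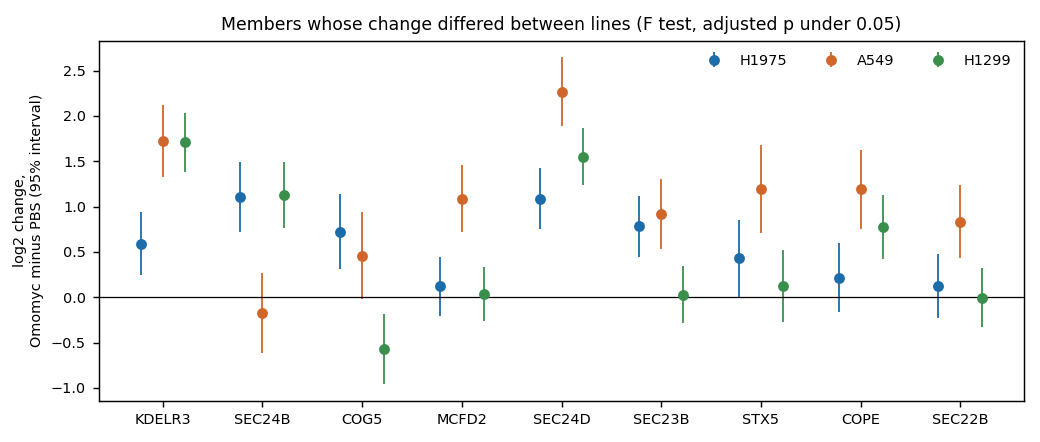
Log2 change, Omomyc minus PBS, with its 95% interval in H1975, A549 and H1299 for the 9 genes called by the F test, in order of its p. KDELR3 is lowest in H1975, SEC24B is near 0 in A549, and COG5 lies below 0 in H1299.

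The lines also differed in the PBS level of these genes, as many other genes did. Of the 51, 19 were higher and 14 lower in H1975 than in A549, where 22.6% and 22.5% of all genes were. In H1975 against H1299, 28 were higher and 9 lower, where 23.2% and 25.7% of all genes were. In A549 against H1299, 19 were higher and 11 lower, where 21.7% and 25.6% were. COPI coat genes were higher in H1975 than in A549 in 5 of 7 cases and than in H1299 in 6 of 7, by medians of 0.93 and 0.64. COPE led them, with PBS differences of 1.53 ± 0.20 and 1.46 ± 0.19. The COPII coat was higher in H1975 than in H1299 for 7 of 11 genes and in A549 than in H1299 for 6 of 11.

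The largest PBS differences were those of KDELR3 and SEC24D, both highest in H1975. KDELR3 averaged 12.90 ± 0.29 in H1975 (SD, n = 4), 10.49 ± 0.40 in A549 (n = 4) and 9.53 ± 0.43 in H1299 (n = 5), and each pair of lines was called different. SEC24D averaged 11.41 ± 0.73, 9.57 ± 0.53 and 8.68 ± 0.53 in the same lines, with fitted differences of 1.67 ± 0.17 for H1975 minus A549, 2.60 ± 0.16 for H1975 minus H1299 and 0.93 ± 0.16 for A549 minus H1299. COG3 and COG6 ran the other way, with COG6 at 8.70 ± 0.21 in H1975, 9.49 ± 0.28 in A549 and 11.00 ± 0.38 in H1299. GOSR2 was highest in A549, at 10.19, against 8.95 in H1975 and 8.35 in H1299. SEC24B was higher in H1299 (10.86 ± 0.17) than in A549 (9.51 ± 0.09) and H1975 (9.66 ± 0.33), and H1975 and A549 were not called different (H1975 minus A549 0.12 ± 0.20).

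**Figure D5:**
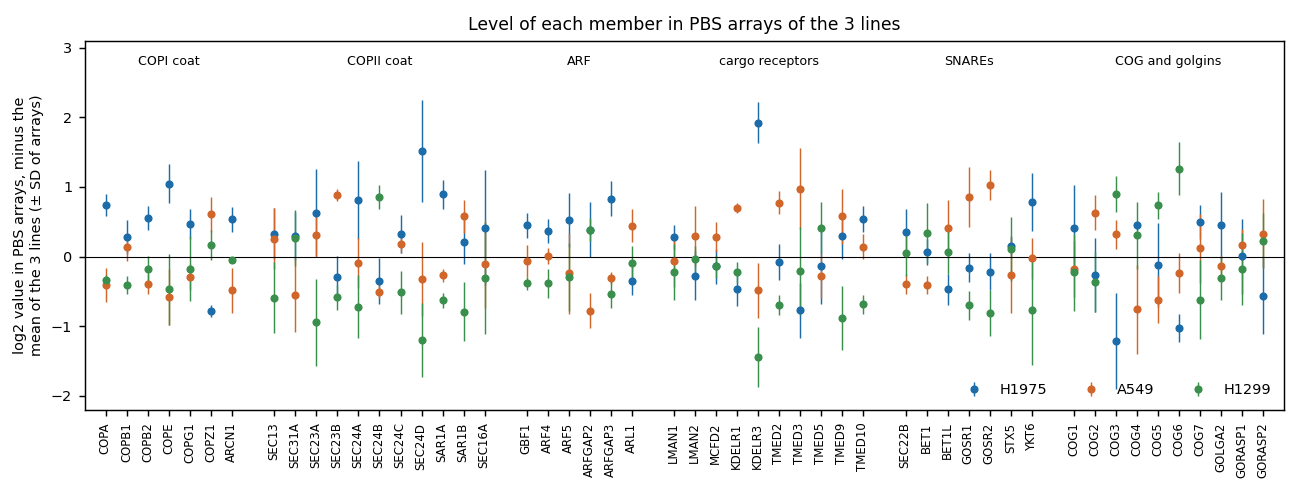
Mean log2 value of the PBS arrays of each line for the 51 genes, minus the mean of the 3 lines, with bars of 1 SD (n = 4 for H1975 and A549, 5 for H1299). KDELR3 and SEC24D stand highest in H1975, and COG6 highest in H1299.

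Other genes of the same route had smaller shares of higher calls than the 51, and larger ones than all genes, in each line. Both the 51 and these genes were chosen with earlier results of these data known, so this ranking is a description only. Of 89 listed genes for COPII adaptors, further cargo receptors, Rab, TRAPP and Dsl1 tethering, further SNAREs and further ARF regulators, 85 were measured. In H1975 17 (20.0%) were called higher and 3 (3.53%) lower, where 9.37% and 9.85% of all genes were. In A549 9 (10.6%) were higher and 0 lower, where 1.71% and 1.13% of all genes were, and in H1299 12 (14.1%) higher and 2 (2.35%) lower, where 7.73% and 8.17% were. Their median changes were 0.19, 0.17 and 0.16 in H1975, A549 and H1299. The single lists did not all follow. Of the Rab, TRAPP and Dsl1 tethering genes, 0 of 25 were called higher in A549. Of the further ARF regulators, 0 of 7 were called higher and 1 lower in H1299, with a median change of -0.16. YIPF2 and YIF1A, Golgi membrane proteins of the YIP1 family, were called higher in all 3 lines (YIPF2 0.80, 0.94 and 1.28, YIF1A 0.70, 1.03 and 0.61 in H1975, A549 and H1299). GOLGA5, the golgin that tethers vesicles within the Golgi, was called in H1975 (1.42 ± 0.18) and H1299 (1.07 ± 0.17). CREB3L2, an ER membrane transcription factor known to activate SEC23A, was called in H1975 (0.97 ± 0.19) and A549 (0.86 ± 0.22). SEC23IP, a partner of SEC23, was called in H1299 (1.03 ± 0.15), and VAMP4, a SNARE of the trans-Golgi, in H1975 (1.34 ± 0.25) and H1299 (0.76 ± 0.23). Without the array set the YIPF2 call in A549, the YIF1A call in H1299, the CREB3L2 call in A549 and the VAMP4 call in H1299 were lost (adjusted p 0.054, 0.0699, 0.0714 and 0.0568), and with the replicate block the YIPF2 and YIF1A calls in A549 (0.102 and 0.0806), the YIF1A call in H1299 (0.0795) and the CREB3L2 call in A549 (0.0569).

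Clathrin adaptors, which act after the Golgi, were listed for comparison, and 22 of 23 were measured. In H1975 1 (4.55%) was called higher and 1 (4.55%) lower, where 9.37% and 9.85% of all genes were. In A549 1 (4.55%) was higher and 0 lower, where 1.71% and 1.13% of all genes were, and in H1299 0 were higher and 4 (18.2%) lower, where 7.73% and 8.17% were. Their median changes were -0.14, -0.05 and -0.06 in H1975, A549 and H1299. AP1S3, the sigma subunit of a clathrin adaptor at the trans-Golgi, was lower in H1299, at -1.53 ± 0.21 (adjusted p 7.96e-06), and AP3S1 was called higher in H1975 (0.77 ± 0.19).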

How the data were processed

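Biotin-labelled total RNA of 26 samples was hybridised to single-colour arrays. The authors deposited log2 values, and the submitters' processing notes name RMA and Partek without versions. Whether all arrays were normalized together, and the genome build, are not given in the sources used here. Of 24351 probe sets, 17709 had 1 gene symbol and 6642 had none, which gave 17687 genes. Where a gene had several probe sets (20 genes), the brightest by mean was kept.

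The 58 genes, the other gene lists and the tests were chosen with earlier results of these data known. Groups came from the labels, which call the arrays of a group biological replicas. Nothing else says that they were separate cultures, so p-values measure only array-to-array spread, which may be technical. No arrays of a group held identical values. The number of arrays limits the precision.

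The array sets came from clustering the arrays on their sorted values, blind to the labels, with average linkage and 3 clusters. Without a term for them, 97.3% of the variance of the first component of the residuals lay between the sets. limma 3.58.1 in R 4.3.3, with statmod 1.5.0, fitted 1 coefficient for each of the 6 groups plus the array set to all 26 arrays, leaving 18 residual degrees of freedom, with lmFit and eBayes. The contrasts took Omomyc minus PBS per line, the average of these, the differences between lines, and the PBS differences between lines. Adjusted p-values are Benjamini-Hochberg over 17687 genes for each contrast, and genes were called under 0.05. Intervals are at 95%. The fit was tested on simulated data.

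To check whether replicate numbers pair Omomyc with PBS arrays, deviations from group means were correlated between arrays of the same number. The correlation was 0.11 to 0.20 in A549 (3 of 3 pairs over 0.1), 0.26 to 0.39 in H1299 (5 of 5) and -0.20 to 0.33 in H1975 (1 of 4). The numbers were therefore taken to pair arrays in A549 and H1299, where each pair lay in 1 array set. With the set removed the correlations were at most 0.0083 in A549, 0.046 in H1299 and 0.082 in H1975. Beside the set, the numbers therefore paired arrays no better in A549 and H1299 than in H1975.

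Values of every array are given for the 2 genes of each group with the smallest p of the average change and the 3 with the smallest p of the F test. They are also given for the genes called lower in H1975 and in H1299, COG4 and COG5, while no gene was called lower in A549. Of the other lists up to 2 genes were taken by the average change, and not all are named. Alternatives were no array set term, the set as a random block, each set alone, the replicate block with and without the set, quantile normalization, centring on medians, a filter at the 30th percentile of gene means, averaged probe sets, trend and robust settings, each line alone, a stricter adjusted p (0.01), a minimum fold change of 1.5, and leaving out each array. Promoter sequences came from RefSeq, GRCh38.p14.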

Additional observations from a re-analysis of the deposited data

Results flagged for a closer look

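COG6 in H1299 PBS replicate 1, of array set 1, was at 10.31, apart from the other 4 PBS arrays of H1299, which lay between 11.15 and 11.21. It was the only such array among 75 groups of values examined, where about 1 in 20 would be expected by chance.

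The change with Omomyc differed between the lines for 9 genes by the moderated F test, with limma adjusted p of 0.00111 for KDELR3, 0.00185 for SEC24B, 0.0029 for COG5, 0.00326 for MCFD2, 0.00367 for SEC24D, 0.0126 for SEC23B, 0.0374 for STX5, 0.0384 for COPE and 0.0442 for SEC22B. These 9 genes were 17.6% of the measured transport genes, where 17.4% of all genes were called, so the share was near that of all genes. Without the array set the F test called 5 transport genes, where 8.18% of all genes were called. With the replicate block beside the set it called only MCFD2 and COG5 among them, where 8.58% of all genes were called. KDELR3, SEC24D and COPE, whose fitted change was smallest in H1975, also had their highest PBS mean there, and so had COG5 in H1299. Others went the other way. SEC23B and MCFD2 had both their highest PBS mean and their largest change in A549, and SEC24B had both in H1299. A change subtracts the PBS level, so the 2 are not independent, and the link between level and change was not tested.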

How the results depend on the processing

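The 6 group medians kept their sign in every line under every alternative run, while the number of calls moved widely. Without a term for the array set, 15 genes were called higher and 0 lower in H1975, 16 higher in A549 and 0 lower in H1299, 7 were higher in all 3 lines and 5 differed between lines, and the COG and golgin median in A549 was 0.50. In array set 1 alone, 2 were called higher in A549. Its medians were 0.41 for COPI, 0.65 for ARF and 0.52 for SNAREs in H1975, 0.87 for cargo receptors and 0.59 for COG and golgins in A549, and 0.70 for cargo receptors, 0.68 for SNAREs and 0.43 for COG and golgins in H1299. In set 2 alone, 3 were called higher in H1975 and 8 in H1299, with 0 lower. Its medians in H1975 were 0.86 for COPII, 0.36 for ARF, 0.42 for cargo receptors, 0.63 for SNAREs and 0.51 for COG and golgins, with 1.00 for COPI in A549 and 0.62 for ARF and 0.48 for COG and golgins in H1299. SEC24B in A549, not called, was at 0.19 there in place of -0.18. In set 3 alone, 16 were called higher and 0 lower in H1299. Its medians were 0.28 for COPI, 0.57 for COPII and 0.35 for SNAREs in H1975, and 0.70 for COPII and 0.45 for SNAREs in H1299. A549 could not be run there, as that set holds no Omomyc array of it. Fewer arrays and residual degrees of freedom enter each set alone. Calls are not counted for a line where a set held 1 array of a treatment. These were H1975 and H1299 in set 1, A549 in set 2 and H1975 in set 3. Shares of calls over all genes are not given here for the sets alone.

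With the replicate block beside the array set, 7 genes were called higher and 0 lower in H1975, where 625 of all 17687 genes were higher. There were 16 higher in A549 and 0 lower in H1299, with 6 in all 3 lines and 2 differing. The H1975 medians were then 0.78 for COPII, 0.41 for ARF, 0.49 for cargo receptors, 0.32 for SNAREs and 0.51 for COG and golgins. In H1975 the numbers do not pair the arrays, and in A549 and H1299 no pairing was left once the set was removed. Calls lost under the block, and with them the count in all 3 lines, therefore do not by themselves show weaker effects. The replicate block without the set gave 0 lower in H1975, 10 higher in A549, 0 lower in H1299, 7 in all lines and 4 differing, and a COPII median of 0.81 in H1975. Quantile normalization gave 0 lower in H1299 and 0.76 for COPII in H1975, and median centring 0.58 for COG and golgins in H1299. Trend and robust settings gave 14 differing genes. Each line alone gave 16 higher in H1975 and 4 in A549. An adjusted p under 0.01 gave 18 higher in H1975, 0 lower in H1975 and H1299, and 5 differing, and a fold change of at least 1.5 gave 0 lower in H1299. Counts or shares over all genes are given for the block beside the set and for each line alone. They are not given here for the other settings of this paragraph, so those counts cannot be set against all genes.

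Leaving out each array gave 22 to 29 genes called higher and 0 to 2 lower in H1975, 16 to 26 higher in A549, 27 to 29 higher and 0 to 1 lower in H1299, 10 to 16 in all 3 lines and 6 to 12 differing. A549 fell to 16, and the count in all 3 lines to 10, without A549 Omomyc replicate 1, and 6 differed without A549 PBS replicate 4. Calls over all genes fell too. Without A549 Omomyc replicate 1, 314 of all genes were called higher or lower in A549. With all arrays 303 were called higher and 199 lower there. The H1975 medians were 0.58 to 0.76 for COPII, 0.48 to 0.63 for ARF, 0.24 to 0.41 for cargo receptors, 0.35 to 0.52 for SNAREs and 0.57 to 0.79 for COG and golgins. The A549 medians were 0.66 to 0.83 for COPI, 0.68 to 0.85 for COPII, 0.70 to 0.94 for cargo receptors, 0.75 to 0.93 for SNAREs and 0.41 to 0.52 for COG and golgins, and in H1299 COPII had 0.86 to 1.05 and COG and golgins 0.48 to 0.58.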
